A study of Mus musculus with 12 samples.

Results

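This is a direct comparison of BMP2 with RSPO2, each given alone to mouse pre-osteoblasts, and it uses 6 of the 12 RNA sequencing libraries of a study that treated the cells with either protein, with both or with vehicle. The cells were MC3T3-E1 subclone 14, a wild-type (WT) clonal line from mouse skull bone, so the 3 libraries of an arm are separate cultures of a single line and not separate animals. The BMP2 arm received recombinant BMP2 at 100 ng/ml and the RSPO2 arm recombinant mouse RSPO2 at 200 ng/ml. The BMP2+RSPO2 arm received both proteins at these doses and the Control arm vehicle. Every arm was kept for 5 days in osteogenic medium with ascorbic acid phosphate at 50 µg/mL and β-glycerophosphate at 5 mM, and each arm had 3 libraries, described in the labels as independent biological replicates. The arms were told apart by the sample labels alone, and the question was how the transcriptomes under the 2 single factors differ.

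Bone morphogenetic proteins bind paired serine/threonine kinase receptors that phosphorylate SMAD proteins, which enter the nucleus and switch on targets such as the Id genes and the feedback inhibitor Smad6. In mesenchymal cells, BMP2 is known for inducing bone and cartilage. R-spondins are secreted proteins that bind LGR receptors and keep the ubiquitin ligases ZNRF3 and RNF43 from removing Wnt receptors, which strengthens β-catenin signalling and the transcription of targets such as Axin2, Nkd2 and Lef1 through TCF/LEF factors.

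Promoter windows are shown for 2 genes of the Wnt side and 1 of the BMP side of the contrast, because these genes stood on opposite sides of it. They are the 250 bases before a transcription start in RefSeq, build GRCm38.p6, read on the strand of the gene. The windows lie at chr13:73847632-73847881 on the minus strand for Nkd2, at chr3:131156044-131156293 on the plus strand for Lef1, which is the most downstream of the 4 windows given for that gene, and at chr9:64022060-64022309 on the minus strand for Smad6. None of the 3 windows overlaps an annotated exon of its gene. Capitals mark TCAAAG, the core letters that TCF/LEF factors are known to bind, searched on both strands:
Nkd2: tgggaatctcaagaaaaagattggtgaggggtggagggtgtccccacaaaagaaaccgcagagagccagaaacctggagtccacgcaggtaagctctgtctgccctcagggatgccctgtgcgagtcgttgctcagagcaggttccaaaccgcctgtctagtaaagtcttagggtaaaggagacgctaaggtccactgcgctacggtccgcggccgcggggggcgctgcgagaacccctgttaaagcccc
Lef1: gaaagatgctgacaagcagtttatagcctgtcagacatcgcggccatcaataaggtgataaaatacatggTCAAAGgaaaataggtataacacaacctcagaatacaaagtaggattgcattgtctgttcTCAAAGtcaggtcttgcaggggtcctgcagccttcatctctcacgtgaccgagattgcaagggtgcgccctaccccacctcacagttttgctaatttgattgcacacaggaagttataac
Smad6: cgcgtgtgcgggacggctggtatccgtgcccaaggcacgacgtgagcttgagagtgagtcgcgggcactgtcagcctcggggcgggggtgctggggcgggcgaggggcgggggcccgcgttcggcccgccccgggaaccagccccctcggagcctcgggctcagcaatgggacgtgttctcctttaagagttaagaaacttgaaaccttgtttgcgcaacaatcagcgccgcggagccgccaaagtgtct

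The Lef1 window shown held TCAAAG 180 and 120 bases before the start. It was chosen for these matches: the other 3 Lef1 windows held no TCAAAG, and 2 of them, which overlap each other, held GGCGCC. The Nkd2 and Smad6 windows held no copy in these letters. GGCGCC, the palindromic core of the BMP response element described in Id1, was in none of the 3 windows shown. Over all 32851 windows of the table, 13.8% held TCAAAG and 9.59% held GGCGCC. Among windows of genes higher with BMP2 (as defined below, 153 of 220 genes matched), 8.45% held TCAAAG and 19.2% held GGCGCC, and among windows of genes lower with BMP2 (277 of 401 matched) these shares were 9.56% and 16.9%. Windows of all tested genes held them in 9.77% and 17.8%. The shares in both directions therefore lay near that of all tested genes, and a match in a window describes letters only.

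Expression is given in FPKM, a count of fragments normalized for transcript length and for library size. The 6 libraries summed to between 349483 and 380507 FPKM and had 10797 to 11105 genes at 1 FPKM or more, and sequencing depth is unknown because no counts were used. All 8 pre-osteoblast markers (Runx2, Sp7, Alpl, Ibsp, Col1a1, Col1a2, Sparc and Cdh11) were above 1 FPKM in the 6 libraries. Their summed level was 18862 to 22198 FPKM with BMP2 and 9565 to 13526 FPKM with RSPO2. The leukocyte and macrophage genes Ptprc, Adgre1 and Itgam were listed at 0 throughout, and the 7 macrophage and blood markers together reached 3.08 to 5.35 FPKM with BMP2 and 2.23 to 3.73 FPKM with RSPO2. The 7 endothelial markers summed to 0.13 to 1.21 FPKM with BMP2 and at most 0.13 FPKM with RSPO2. Some libraries differed in composition within their arm. RNAs made by RNA polymerase III held 0.180% to 0.657% of the FPKM with BMP2 and 0.304% to 2.30% with RSPO2, where replicate 3 was the highest. They held 19.1% in BMP2+RSPO2 replicate 1, which is outside the contrast but adds to the spread estimated from all 12 libraries. The part of these differences in the results was not tested.

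Of 11548 genes at 1 FPKM or more in at least 3 of the 12 libraries, 621 differed between BMP2 and RSPO2 at an adjusted p under 0.05, which is 5.38% of the tested genes. With BMP2, 220 genes were higher (1.91%) and 401 were lower (3.47%). The log2 change, BMP2 minus RSPO2 on the log2(FPKM + 1) scale, had a median of 1.08 among the higher genes (0.39 to 4.47) and of −0.94 among the lower genes (−5.02 to −0.33). Across all tested genes its median was −0.07. Below, rose and fell mean higher and lower with BMP2 than with RSPO2, and not a change from Control. The BMP2 and RSPO2 values did not overlap in any of the 621 called genes, and 24.9% of all tested genes had values that did not overlap. After quantile normalization 262 genes were higher and 296 lower, and after median-of-ratios scaling 261 were higher and 289 lower, so that the share of higher genes was 47.0% and 47.5%, against 35.4% for FPKM as deposited. A fit that took replicate number as a block called 982 genes, 378 higher and 604 lower, and they included 617 of the 621. In whole tissue or culture RNA, a smaller number of cells expressing a gene and less RNA per cell cannot be told apart, which holds for every value below.

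**Figure D1:**
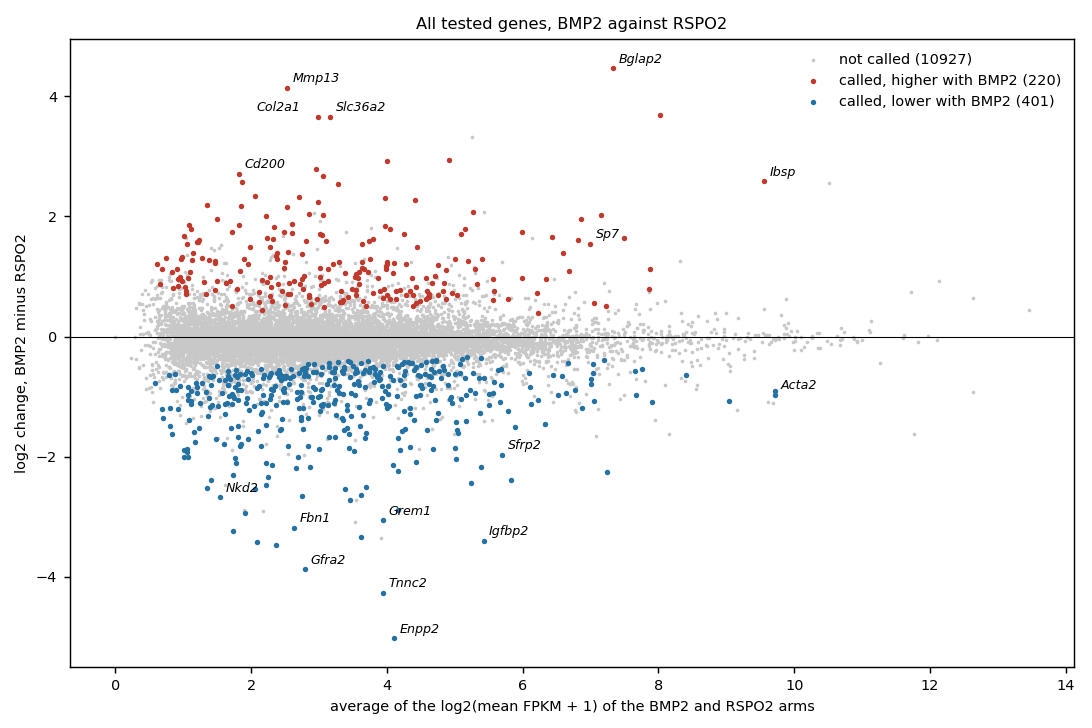
Each point is a tested gene, with the average of the log2(mean FPKM + 1) of the BMP2 and RSPO2 arms on the horizontal axis and the log2 change, BMP2 minus RSPO2, on the vertical axis. The 220 genes higher with BMP2 are red and the 401 lower ones blue, with Bglap2 and Mmp13 at the top and Enpp2 and Tnnc2 at the bottom.

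The number of calls rested on several libraries. It was 349 without BMP2 replicate 2, 343 without BMP2 replicate 3, 383 without RSPO2 replicate 2 and 1076 without BMP2+RSPO2 replicate 1. Leaving out each of the 12 libraries in turn, 295 genes were called every time, 116 of them higher and 179 lower with BMP2. All 621 kept their direction in each of these fits.

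Osteoblast genes that differed were higher with BMP2 in all but 1 case. Of 27 tested members of the osteoblast list, 12 rose, 1 fell and 14 were not called, with a median log2 change of 0.96. Ibsp, which encodes bone sialoprotein of the mineralizing matrix, was at 2156, 1605 and 1724 FPKM with BMP2, against 232, 305 and 387 FPKM with RSPO2. Every BMP2 library was thus well above every RSPO2 library, and Ibsp rose with a log2 change of 2.58 (SE 0.26, adjusted p = 0.000261). Its mean was 2610.1 ± 554 FPKM with both proteins and 645 ± 171 FPKM in Control (± is the SD of the 3 libraries of an arm throughout). Sp7, the osteoblast transcription factor osterix, was at 192, 231 and 222 FPKM with BMP2, against 61.8, 64.8 and 96.4 FPKM with RSPO2, and rose by 1.55 (SE 0.28, adjusted p = 0.00897). The highest RSPO2 library remained below the lowest BMP2 library for Sp7.

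Other regulators of the lineage moved the same way by smaller amounts. Runx2, the master transcription factor of osteoblasts, was at 33.9, 40.4 and 42.7 FPKM with BMP2 and at 21.6, 21.2 and 26.9 FPKM with RSPO2 (log2 0.73, SE 0.15, adjusted p = 0.0173). The homeobox gene Dlx5 was nearly level across the BMP2 libraries, at 40.1, 38.2 and 38.8 FPKM, and spread across the RSPO2 libraries, at 11.5, 16.4 and 23.9 FPKM (log2 1.19, SE 0.23, adjusted p = 0.0125). Its relative Dlx3 averaged 8.32 ± 0.823 FPKM with BMP2 and 3.84 ± 0.871 FPKM with RSPO2 and was not called without any single BMP2 replicate or RSPO2 replicate 1 or 2. The adjusted p of Runx2 lay between 0.0626 and 0.0859 without BMP2 replicate 2 or 3 or RSPO2 replicate 1 or 2, and that of Dlx5 was 0.0503 without BMP2 replicate 3.

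Some genes of matrix mineralization and hormone response followed. Alpl, the alkaline phosphatase that frees phosphate for mineral, was at 23.2, 18.0 and 18.7 FPKM with BMP2, against 8.65, 5.45 and 8.83 FPKM with RSPO2, without overlap (mean 2.61-fold higher, adjusted p = 0.00285). Control cells averaged 8.71 ± 0.454 FPKM of Alpl, close to the RSPO2 mean of 7.64 ± 1.90. Ifitm5, an osteoblast membrane protein gene, was at 429, 219 and 214 FPKM with BMP2 and at 46.3, 63.5 and 99.3 FPKM with RSPO2, and rose by 2.02 (adjusted p = 0.00682). Smpd3, a sphingomyelinase needed for bone mineralization in mice, averaged 147 ± 2.92 FPKM with BMP2 and 48.8 ± 20.5 FPKM with RSPO2, a call lost without BMP2 replicate 2 or 3 (adjusted p = 0.0565 and 0.0556). Pth1r, the receptor for parathyroid hormone, averaged 195 ± 31.4 FPKM with BMP2 and 64.0 ± 14.0 FPKM with RSPO2 (log2 1.60, adjusted p = 0.0370), a call lost without any single BMP2 or RSPO2 replicate or without Control replicate 2 or 3. Lifr, the receptor for leukemia inhibitory factor, was at 26.4, 28.2 and 29.1 FPKM with BMP2 and at 13.7, 13.0 and 14.2 FPKM with RSPO2, the tightest separation among these called genes by SE (0.12). Other list members did not follow. Phospho1 averaged 70.4 ± 14.3 FPKM with BMP2 and 63.6 ± 43.1 FPKM with RSPO2, which overlap (adjusted p = 0.875 by limma). Ank and Enpp1 were not called, nor were Slc20a1 and Slc20a2, whose log2 changes were −0.25 and −0.17.

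The largest rise of the contrast was that of Bglap2, an osteocalcin gene, with 832, 662 and 602 FPKM in BMP2 libraries and 29.3, 63.9 and 14.5 FPKM in RSPO2 libraries (log2 4.47, SE 1.02, adjusted p = 0.0284). Its near-identical neighbours Bglap and Bglap3 were not analysed here, so reads may be split among these genes and the level is uncertain. The BMP2+RSPO2 libraries spread widely, at 912 ± 741 FPKM, and its adjusted p was between 0.0791 and 0.112 without BMP2 replicate 1, 2 or 3 or RSPO2 replicate 1 or 3, and 0.0641 without a filter on low values. Mmp13, a collagenase of hypertrophic cartilage and osteoblasts, was at 4.29, 38.1 and 40.3 FPKM with BMP2, against 0.17, 0.18 and 0.13 FPKM with RSPO2, and rose by 4.14 (SE 0.63, adjusted p = 0.00349). BMP2 replicate 1 was the lowest of its arm and still above every RSPO2 library.

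Several abundant osteoblast genes did not pass the test, and in Dmp1 and Spp1 replicate 1 was far below the others in both arms. Dmp1, a matrix protein of late osteoblasts and osteocytes, was at 4.25, 233 and 191 FPKM with BMP2 and at 0.19, 9.78 and 17.4 FPKM with RSPO2, with overlapping groups (log2 3.32, SE 1.95, adjusted p = 0.497). Blocking on replicate number, the adjusted p of Dmp1 was 0.000744. Spp1, which encodes osteopontin, was at 380.0, 6354 and 5866 FPKM with BMP2 and at 154, 765 and 587 FPKM with RSPO2 (adjusted p = 0.494, and 0.0131 with the block). The collagen gene Col1a1 was at 6628, 8994 and 8123 FPKM with BMP2 and at 3935, 5076 and 6412 FPKM with RSPO2 (adjusted p = 0.210, and 0.0435 with the block). In all, 19 members of the osteoblast list rose and 1 fell with the block, and those gained were Dmp1, Fam20c, Spp1, Sparc, Dlx6, Col1a1 and Col1a2. Without BMP2 replicate 2 and without BMP2 replicate 3, 7 and 6 members rose. The member that fell was Cdh11, an osteoblast cadherin, at 106, 113 and 112 FPKM with BMP2 and at 150.3, 163 and 145 FPKM with RSPO2 (log2 −0.46, adjusted p = 0.0304), a call not made under quantile normalization or median-of-ratios scaling, without any single BMP2 or RSPO2 replicate or without Control replicate 2.

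**Figure D2:**
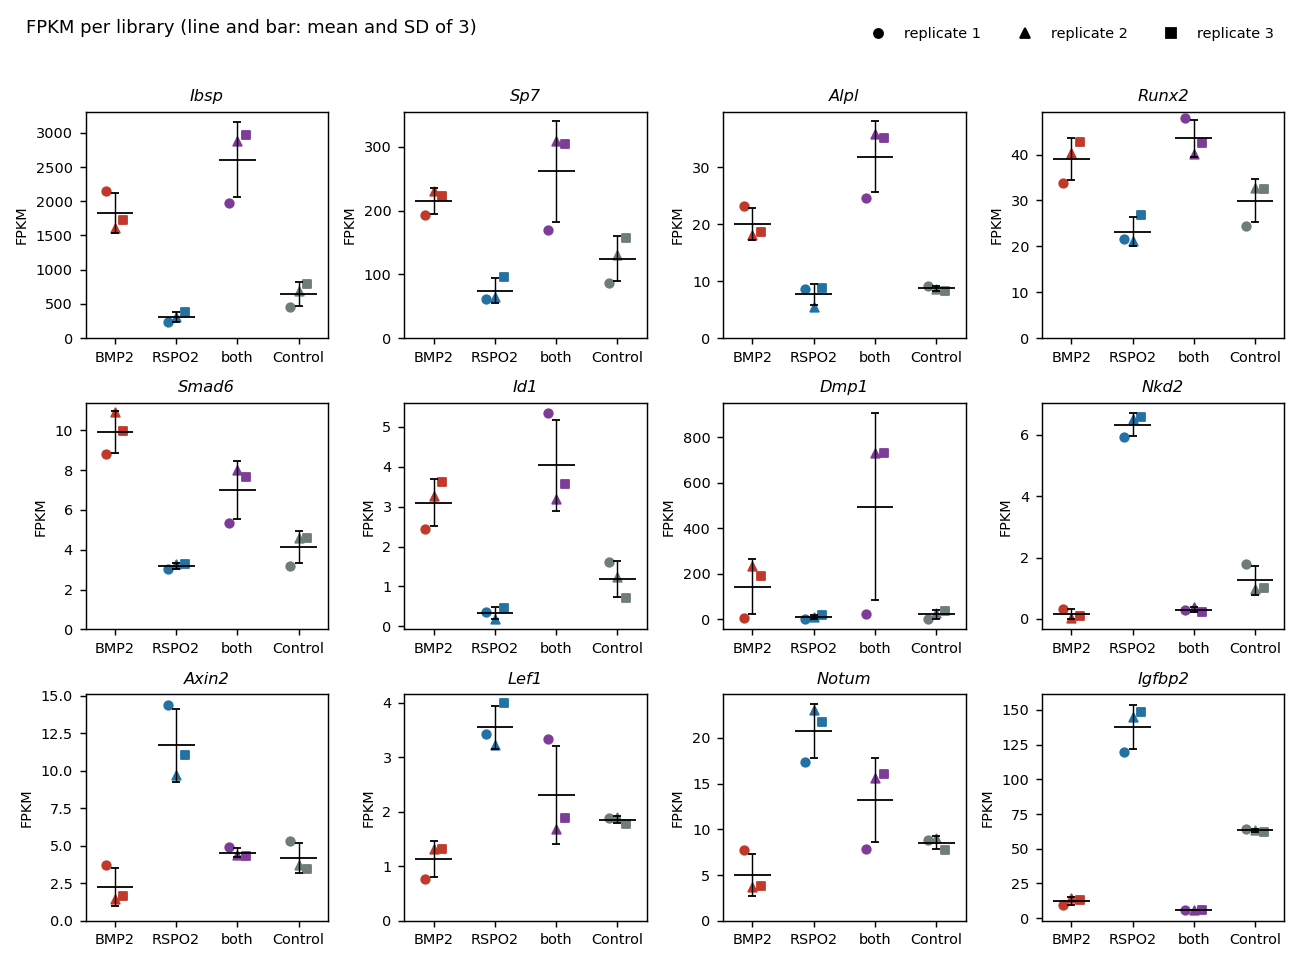
FPKM of 12 genes in the 12 libraries, with BMP2, RSPO2, both proteins and Control from left to right, symbols for the replicates, and lines and bars for the mean and SD of 3 libraries. Ibsp, Sp7, Alpl, Runx2, Smad6 and Id1 are higher in every BMP2 library than in any RSPO2 library, Nkd2, Axin2, Lef1, Notum and Igfbp2 are lower, and Dmp1 overlaps.

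Targets of BMP-SMAD signalling moved in both directions, with more of them higher with BMP2. Of 19 tested members, 8 rose, 2 fell and 9 were not called, with a median log2 change of 0.52 and 7 members below 0. Without BMP2 replicate 3, 5 rose, without BMP2+RSPO2 replicate 1, 5 fell, and with the block 9 rose, by the addition of Bmper (adjusted p = 0.0311). The Id genes encode inhibitors of basic helix-loop-helix factors. Id1 was low in level, at 2.44, 3.26 and 3.61 FPKM with BMP2 and at 0.37, 0.18 and 0.46 FPKM with RSPO2, and rose by 1.61 (SE 0.21, adjusted p = 0.00129). Id3 was more abundant, at 91.5, 70.9 and 68.7 FPKM with BMP2 and at 22.7, 11.4 and 20.3 FPKM with RSPO2 (log2 2.07, SE 0.28, adjusted p = 0.00166). Id2 averaged 13.9 ± 5.13 FPKM with BMP2 and 3.97 ± 1.86 FPKM with RSPO2. Id1, Id2 and Id3 did not overlap between the arms, and in each of them Control lay between, at 1.19 ± 0.457 FPKM for Id1, 7.10 ± 3.51 FPKM for Id2 and 39.4 ± 6.31 FPKM for Id3. The call of Id2 was lost without any single BMP2 replicate, among other fits (adjusted p up to 0.149, without RSPO2 replicate 2). Id4 was not called and lay the other way, at 0.13, 0.12 and 0.40 FPKM with BMP2 and at 1.26, 0.96 and 0.84 FPKM with RSPO2, without overlap (log2 −0.73, SE 0.21, adjusted p = 0.0740), with Control at 1.09 ± 0.517 FPKM.

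Smad6, whose promoter window is shown above, was at 8.82, 10.9 and 9.99 FPKM with BMP2, against 3.01, 3.27 and 3.26 FPKM with RSPO2 (log2 1.38, SE 0.16, adjusted p = 0.000695). Its RSPO2 libraries were close to each other, at 3.18 ± 0.147 FPKM. Atoh8, a helix-loop-helix factor induced by BMPs, was at 9.44, 5.40 and 5.37 FPKM with BMP2 and at 0.77, 0.33 and 0.95 FPKM with RSPO2 (log2 2.18, SE 0.21, adjusted p = 0.000189). The homeobox gene Msx2 averaged 1.70 ± 0.352 FPKM with BMP2 and 0.537 ± 0.226 FPKM with RSPO2 and rose as well (log2 0.82, adjusted p = 0.00962, and 0.0532 without BMP2 replicate 3).

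The members that fell were secreted BMP antagonists. Grem1 was at 6.08, 3.27 and 3.75 FPKM with BMP2, against 43.0, 43.3 and 41.5 FPKM with RSPO2, and fell by 3.06 (SE 0.23, adjusted p = 5.49e-05). Nog, which encodes noggin, was at 0.42, 0.44 and 1.03 FPKM with BMP2 and at 2.93, 5.31 and 5.82 FPKM with RSPO2 (log2 −1.78, SE 0.31, adjusted p = 0.00680, and 0.0731 with a pseudocount of 0.1). Control levels of Grem1 and Nog lay between, at 20.4 ± 6.24 and 1.79 ± 0.818 FPKM.

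Ligands and receptors of the BMP and TGF-β family were mostly lower where they differed. Of 20 tested members, 1 rose and 5 fell, with a median of −0.16. Gdf6, a BMP-family ligand, was at 0.71, 0.13 and 0.22 FPKM with BMP2, against 6.66, 11.3 and 10.4 FPKM with RSPO2 (log2 −2.94, SE 0.21, adjusted p = 4.23e-05). Inhba, which encodes the subunit of activin A, was at 5.22, 4.95 and 6.59 FPKM with BMP2 and at 37.6, 49.8 and 57.3 FPKM with RSPO2 (log2 −2.89, SE 0.32, adjusted p = 0.000467). The TGF-β receptor gene Tgfbr2 averaged 18.1 ± 0.759 FPKM with BMP2 and 55.5 ± 3.89 FPKM with RSPO2 (log2 −1.56, SE 0.13, adjusted p = 0.000105). These groups were far apart in all 3 genes. Among the TGF-β ligands themselves, Tgfb1 averaged 41.3 ± 4.79 FPKM with BMP2 and 19.0 ± 5.46 FPKM with RSPO2 and rose (log2 1.11, adjusted p = 0.0291), whereas Tgfb3 averaged 17.1 ± 1.87 FPKM with BMP2 and 36.9 ± 5.16 FPKM with RSPO2 and fell (log2 −1.06, adjusted p = 0.00667). Tgfb1 was not called without any single BMP2 replicate or without RSPO2 replicate 1 or 2. The type I receptor gene Acvr1 also fell, at 10.7 ± 1.31 FPKM with BMP2 and 16.1 ± 2.20 FPKM with RSPO2 (adjusted p = 0.0389), but it was not called after quantile normalization or median-of-ratios scaling (adjusted p = 0.130 and 0.116) or in most fits that left out a library.

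Targets of canonical Wnt signalling that differed were mostly lower with BMP2. Of 17 tested members, 1 rose and 9 fell, with a median log2 change of −0.87. Nkd2, a feedback inhibitor that binds Dishevelled, was near 0 with BMP2, at 0.33, 0.03 and 0.10 FPKM, against 5.92, 6.52 and 6.58 FPKM with RSPO2. It fell by 2.68 (SE 0.17, adjusted p = 1.54e-05), and Control had 1.26 ± 0.465 FPKM. Axin2, a scaffold of the β-catenin destruction complex and the classical Wnt target, was at 3.73, 1.43 and 1.66 FPKM with BMP2 and at 14.4, 9.70 and 11.1 FPKM with RSPO2 (log2 −2.01, SE 0.25, adjusted p = 0.000912). Lef1, whose window with TCAAAG in capitals is shown above, was at 0.76, 1.32 and 1.32 FPKM with BMP2 and at 3.43, 3.22 and 3.99 FPKM with RSPO2 (mean 3.13-fold lower, adjusted p = 0.00661). Notum, a secreted enzyme that inactivates Wnt proteins, was at 7.69, 3.68 and 3.78 FPKM with BMP2 and at 17.4, 23.1 and 21.8 FPKM with RSPO2 (log2 −1.90, SE 0.29, adjusted p = 0.00328). No BMP2 library reached an RSPO2 library in any of these 4 genes, and Control means were 4.17 FPKM for Axin2 and 1.85 FPKM for Lef1.

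Further members that fell include secreted or membrane-bound regulators of the pathway. Dkk2, which binds the Wnt co-receptors, was listed at 0 in the 3 BMP2 libraries and at 3.06, 2.24 and 1.26 FPKM with RSPO2 (adjusted p = 0.00137). Fgf18, a growth factor gene, was listed at 0, 0.16 and 0 FPKM with BMP2 and at 3.89, 6.66 and 4.92 FPKM with RSPO2 (adjusted p = 0.000369). Apcdd1, a membrane inhibitor of Wnt signalling, averaged 0.887 ± 0.396 FPKM with BMP2 and 5.95 ± 3.54 FPKM with RSPO2 (log2 −1.79, adjusted p = 0.0304), a call lost without any single BMP2 replicate or RSPO2 replicate 1 or 2. Tnfrsf19 averaged 65.4 ± 15.6 FPKM with BMP2 and 127 ± 7.34 FPKM with RSPO2, and Kremen1, a receptor for Dickkopf proteins, 20.1 ± 0.461 FPKM with BMP2 and 30.8 ± 3.44 FPKM with RSPO2 (adjusted p = 0.0568 without BMP2 replicate 3). The member that rose was Bambi, a pseudoreceptor that dampens TGF-β and BMP signals and is a target of both pathways, at 6.91, 4.17 and 3.75 FPKM with BMP2 and at 1.94, 1.31 and 1.34 FPKM with RSPO2 (log2 1.20, adjusted p = 0.00973).

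Other genes of the list gave no call. The ubiquitin ligase gene Znrf3 was at 1.80, 1.86 and 2.04 FPKM with BMP2 and at 2.11, 2.28 and 1.86 FPKM with RSPO2, which overlap (log2 −0.09, SE 0.20, adjusted p = 0.931). Its partner Rnf43 averaged 3.06 ± 0.205 FPKM with BMP2 and 3.08 ± 0.465 FPKM with RSPO2. Wif1, a secreted Wnt inhibitor, was at 69.0, 150.1 and 145 FPKM with BMP2 and at 19.6, 43.7 and 53.9 FPKM with RSPO2, without overlap (log2 1.65, SE 0.57, adjusted p = 0.162, and 0.000208 with the block). With the block, 3 members rose and 10 fell.

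The ligands, receptors and secreted antagonists of the Wnt pathway were divided. Of 25 tested members, 4 rose and 7 fell, with a median of −0.06, and with the block 6 rose and 9 fell, by the addition of Fzd8, Wnt6, Ror2 and Wnt10a. Lgr4, a receptor for R-spondins, was at 4.76, 5.91 and 5.89 FPKM with BMP2 and at 3.01, 2.33 and 2.73 FPKM with RSPO2, and rose by 0.82 (SE 0.13, adjusted p = 0.00362). The frizzled receptors differed among themselves. Fzd5 was at 10.5, 15.4 and 15.8 FPKM with BMP2 and at 2.53, 4.63 and 3.66 FPKM with RSPO2 and rose (log2 1.70, adjusted p = 0.00237). Fzd2 was at 9.65, 9.95 and 9.73 FPKM with BMP2 and at 25.3, 20.9 and 21.2 FPKM with RSPO2 and fell (log2 −1.12, SE 0.14, adjusted p = 0.00101). Fzd7 fell as well, with means of 11.5 ± 0.471 FPKM with BMP2 and 24.1 ± 2.60 FPKM with RSPO2 (adjusted p = 0.00577).

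Among the ligands, Wnt7b was at 0.17, 0.16 and 0.16 FPKM with BMP2 and at 4.77, 4.95 and 5.54 FPKM with RSPO2 (log2 −2.39, SE 0.19, adjusted p = 7.62e-05). Wnt10b, which in mice favours osteoblasts over adipocytes, was at 24.4, 21.4 and 22.4 FPKM with BMP2 and at 10.1, 9.03 and 9.47 FPKM with RSPO2 and rose (log2 1.17, adjusted p = 0.0111). Wnt4 rose as well, with means of 1.95 ± 0.736 FPKM with BMP2 and 0.487 ± 0.300 FPKM with RSPO2, and was not called without BMP2 replicate 1 or RSPO2 replicate 2 or 3. The soluble frizzled-related gene Sfrp2 was the most significant member, at 23.2, 26.7 and 25.6 FPKM with BMP2 and at 86.2, 101 and 119 FPKM with RSPO2 (log2 −1.97, SE 0.14, adjusted p = 3.45e-05). The Rspo2 transcript of the cells themselves was near 1 FPKM in both arms, with means of 1.14 ± 0.599 FPKM with BMP2 and 1.19 ± 0.400 FPKM with RSPO2, which overlap (adjusted p = 0.970).

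Several genes of the insulin-like growth factor (IGF) system were lower with BMP2 than with RSPO2. Of 12 tested members, 5 fell, none rose and 7 were not called, with a median of −0.69 and 3 members above 0. Igfbp2, which encodes a binding protein of IGFs, was at 9.16, 14.7 and 13.0 FPKM with BMP2, against 119.8, 145 and 149 FPKM with RSPO2. It fell by 3.40 (SE 0.15, adjusted p = 2.02e-06), and Control had 63.4 ± 1.12 FPKM. The growth factor Igf1 itself was at 0.47, 0.32 and 0.64 FPKM with BMP2 and at 8.56, 5.76 and 4.95 FPKM with RSPO2 (log2 −2.31, SE 0.24, adjusted p = 0.000332). Igf2 averaged 1.77 ± 0.845 FPKM with BMP2 and 5.17 ± 1.73 FPKM with RSPO2, Igfbp4 14.9 ± 5.76 FPKM with BMP2 and 65.1 ± 28.9 FPKM with RSPO2, and Igfbp7 35.0 ± 2.34 FPKM with BMP2 and 84.1 ± 9.93 FPKM with RSPO2. The 5 called members were ligands or binding proteins. Igf2 was not called after quantile normalization or median-of-ratios scaling (adjusted p = 0.0588 and 0.0570), without BMP2 replicate 1 or 3 or without RSPO2 replicate 2 or 3. Igfbp5, an abundant binding protein of bone, was not called, at 3.67, 20.6 and 22.9 FPKM with BMP2 and at 7.54, 7.02 and 8.29 FPKM with RSPO2, with BMP2 replicate 1 below and the other BMP2 libraries above the RSPO2 range.

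Cartilage genes that differed were higher with BMP2. Of 9 tested members, 5 rose and none fell, with a median of 1.05, and the block added Hapln1 (adjusted p = 0.0385). Col2a1, the main collagen of cartilage, was at 15.6, 35.3 and 32.4 FPKM with BMP2, against 0.69, 1.43 and 1.43 FPKM with RSPO2 (log2 3.66, SE 0.41, adjusted p = 0.000552). Col11a2, a fibril collagen found in cartilage, was at 62.1, 88.1 and 85.0 FPKM with BMP2 and at 4.79, 8.64 and 18.0 FPKM with RSPO2 (log2 2.94, SE 0.56, adjusted p = 0.0117). The chondrocyte transcription factor Sox9 was at 5.23, 7.96 and 8.96 FPKM with BMP2 and at 2.85, 2.28 and 3.04 FPKM with RSPO2 (log2 1.15, SE 0.18, adjusted p = 0.00366). Otor, which encodes a secreted protein of the cochlea and cartilage, averaged 3.02 ± 0.450 FPKM with BMP2 and 0.347 ± 0.0611 FPKM with RSPO2 (log2 1.57, SE 0.14, adjusted p = 0.000118). The arms were separate in all of these genes. Without BMP2 replicate 2 or without BMP2 replicate 3, 3 members rose and Col11a2 was not among them (adjusted p = 0.0531 and 0.0518).

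**Figure D3:**
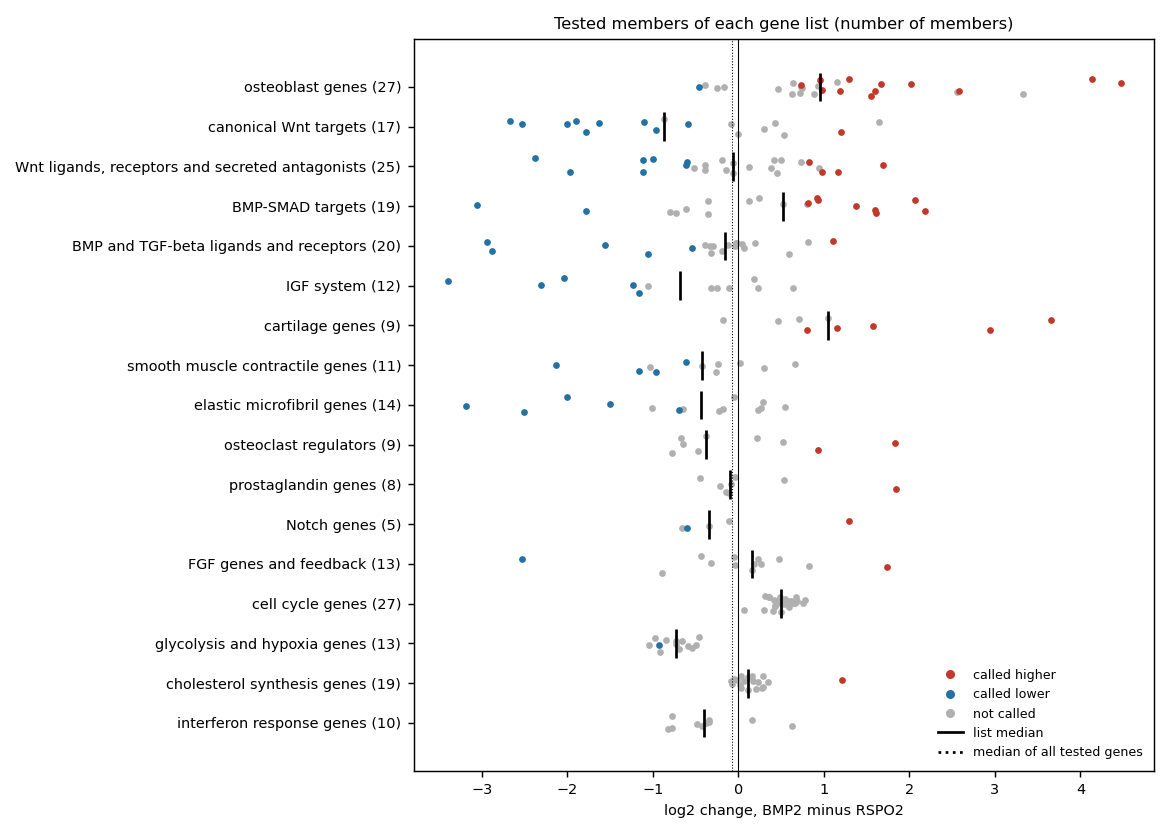
Log2 change, BMP2 minus RSPO2, of every tested member of the gene lists with at least 5 tested members, with genes called higher in red, genes called lower in blue, uncalled genes in grey, a bar at each list's median and a dotted line at the median of all tested genes, −0.07. Osteoblast and cartilage genes lie mostly to the right, with medians of 0.96 and 1.05, and canonical Wnt targets and the IGF system to the left, with medians of −0.87 and −0.69.

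Some genes of elastic microfibrils were lower with BMP2 than with RSPO2. Of 14 tested members, 5 fell, none rose and 9 were not called, with a median of −0.44 and 4 members above 0. With the block 6 fell, Loxl1 being added (adjusted p = 0.0474), and the collagen cross-linking enzyme gene Lox was called higher (adjusted p = 0.0227, and 0.129 without the block). Fbn1, which encodes fibrillin-1, was at 0.94, 1.12 and 1.12 FPKM with BMP2, against 16.5, 18.7 and 18.1 FPKM with RSPO2 (log2 −3.19, SE 0.14, adjusted p = 2.02e-06). Fbn2 was at 3.34, 5.11 and 4.88 FPKM with BMP2 and at 26.0, 27.7 and 36.1 FPKM with RSPO2 (log2 −2.51, SE 0.23, adjusted p = 0.000165). Fbn1 showed the smallest adjusted p of the contrast together with Igfbp2. Mfap4, a microfibril-associated protein gene, was listed at 0, 0.10 and 0 FPKM with BMP2 and at 2.39, 2.95 and 4.36 FPKM with RSPO2 (adjusted p = 0.000204). Fbln5, which encodes fibulin-5 of elastic fibres, averaged 6.22 ± 0.0854 FPKM with BMP2 and 19.5 ± 2.21 FPKM with RSPO2, and Fbln2 31.3 ± 1.42 FPKM with BMP2 and 51.3 ± 4.85 FPKM with RSPO2.

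Contractile genes of smooth muscle, which fibroblasts and osteoblast precursors also express, fell in 4 of 11 tested members and rose in none, with a median of −0.43, and 3 fell after either scaling. Acta2, smooth muscle actin, was abundant in both arms, at 590.0, 585 and 623 FPKM with BMP2 and at 1005, 1327 and 1209.8 FPKM with RSPO2 (log2 −0.97, SE 0.13, adjusted p = 0.00163). Control had 1190.4 ± 89.2 FPKM of Acta2, close to RSPO2. Itga8, the integrin alpha 8 chain, was at 0.84, 1.70 and 1.61 FPKM with BMP2 and at 9.20, 8.56 and 10.2 FPKM with RSPO2 (log2 −2.13, SE 0.20, adjusted p = 0.000165). Lmod1, which nucleates actin filaments, averaged 4.52 ± 0.261 FPKM with BMP2 and 11.4 ± 0.997 FPKM with RSPO2, and Tpm2, a tropomyosin gene, 26.2 ± 2.16 FPKM with BMP2 and 40.7 ± 3.19 FPKM with RSPO2. Tpm2 was the call lost after quantile normalization and median-of-ratios scaling (adjusted p = 0.0712 and 0.0519), and it was also lost without any single BMP2 or RSPO2 replicate. Tagln had values of 107, 118 and 125 FPKM with BMP2 and of 143, 329 and 290.2 FPKM with RSPO2 (adjusted p = 0.10, and 0.0150 with the block). With the block, 1 member of this list rose and 6 fell.

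The remaining falls among the 8 largest were in genes of varied function. Enpp2, which encodes autotaxin, the enzyme that makes lysophosphatidic acid, was at 3.71, 1.17 and 1.42 FPKM with BMP2, against 117, 94.5 and 73.9 FPKM with RSPO2, and fell by 5.02 (SE 0.38, adjusted p = 5.78e-05), more than any other called gene. Tnnc2, troponin C of fast skeletal muscle, was at 3.29, 2.12 and 2.10 FPKM with BMP2 and at 83.1, 51.7 and 65.4 FPKM with RSPO2 (log2 −4.26, SE 0.30, adjusted p = 3.74e-05). Of the defining striated muscle markers, Myod1, Ckm and Ttn were listed at 0 in the 6 libraries, and Myog reached at most 0.05 FPKM. Among the 3 striated muscle genes tested, Actn3, an actinin of fast fibres, averaged 2.67 ± 1.47 FPKM with BMP2 and 0.187 ± 0.0451 FPKM with RSPO2 and rose (adjusted p = 0.0205), a call lost without BMP2 replicate 2 or 3 or any single RSPO2 replicate. Gfra2, a receptor for neurturin, was at 1.22, 0.64 and 0.59 FPKM with BMP2 and at 27.6, 23.7 and 24.6 FPKM with RSPO2 (log2 −3.87, SE 0.21, adjusted p = 6.33e-06). Apod, a lipid-binding secreted protein gene, averaged 0.300 ± 0.197 FPKM with BMP2 and 12.9 ± 2.72 FPKM with RSPO2. Mrgprf, an orphan receptor gene, averaged 2.85 ± 0.188 FPKM with BMP2 and 38.1 ± 4.68 FPKM with RSPO2, and the integrin-like Itgbl1 was at 0.05, 0.11 and 0.07 FPKM with BMP2 and at 10.5, 8.63 and 8.52 FPKM with RSPO2.

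The remaining rises among the 8 largest were likewise mixed. Slc36a2, a proton-coupled amino acid transporter, was at 34.4, 28.2 and 27.8 FPKM with BMP2, against 0.80, 1.23 and 2.69 FPKM with RSPO2 (log2 3.66, SE 0.34, adjusted p = 0.000165). Cfhr2, a complement factor H-related gene, was at 16.3, 20.5 and 21.1 FPKM with BMP2 and at 1.86, 1.34 and 2.71 FPKM with RSPO2 (log2 2.79, SE 0.25, adjusted p = 0.000127). Cd200, an immunoglobulin-family surface protein gene, was at 9.17, 7.94 and 6.92 FPKM with BMP2 and at 0.08, 0.58 and 0.50 FPKM with RSPO2 (log2 2.71, SE 0.29, adjusted p = 0.000338). Spns2, the exporter of sphingosine-1-phosphate, averaged 19.7 ± 2.47 FPKM with BMP2 and 2.38 ± 1.23 FPKM with RSPO2 (adjusted p = 0.0212, and 0.0540 to 0.0854 without any single BMP2 replicate or RSPO2 replicate 1 or 2).

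Some genes through which osteoblasts act on osteoclasts and on local signals were called, beside 5.38% of all tested genes. Of 9 tested osteoclast regulators, 2 rose and none fell, with a median of −0.38. Of all tested genes, 1.91% rose and 3.47% fell. With the block, 3 osteoclast regulators rose and 2 fell. The decoy receptor gene Tnfrsf11b (osteoprotegerin) was at 172, 132 and 137 FPKM with BMP2 and at 95.1, 136 and 152 FPKM with RSPO2, which overlap (log2 0.22, SE 0.18, adjusted p = 0.695). The chemokine gene Cxcl12 was at 5.03, 13.1 and 7.99 FPKM with BMP2 and at 0.89, 1.73 and 2.30 FPKM with RSPO2 (log2 1.83, SE 0.30, adjusted p = 0.00555). Efnb2, an ephrin ligand, averaged 3.47 ± 0.431 FPKM with BMP2 and 1.35 ± 0.206 FPKM with RSPO2, a call lost without BMP2 replicate 1 or 3 or RSPO2 replicate 1 or 3 (adjusted p 0.0601 to 0.0870). Ptgfr, the prostaglandin F receptor, was the called gene among 8 prostaglandin genes, at 23.7, 30.0 and 33.3 FPKM with BMP2 and at 7.27, 6.59 and 7.94 FPKM with RSPO2 (log2 1.85, SE 0.19, adjusted p = 0.000292).

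In the Notch pathway, the target Hes1 averaged 4.84 ± 0.405 FPKM with BMP2 and 1.39 ± 0.272 FPKM with RSPO2 and rose (log2 1.29, SE 0.21, adjusted p = 0.00457). The ligand Jag1 averaged 2.25 ± 0.133 FPKM with BMP2 and 3.94 ± 0.420 FPKM with RSPO2 and fell (log2 −0.60, adjusted p = 0.0321), a call lost under both scalings (adjusted p = 0.0652 and 0.0633) and without any single BMP2 replicate, RSPO2 replicate 2 or 3 or Control replicate 2, and without a filter on low values. Among 13 FGF genes, 1 rose and 1 fell, and with the block 3 rose. The receptor Fgfr3 was at 8.44, 9.55 and 9.73 FPKM with BMP2 and at 2.34, 1.79 and 2.10 FPKM with RSPO2 and rose (log2 1.74, SE 0.25, adjusted p = 0.00279), and the member that fell was Fgf18, given above.

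Cell cycle and metabolic genes gave at most 1 call per list in the main fit, where 5.38% of all tested genes were called. Such counts of calls in short lists do not set these genes apart from all tested genes, and they do not describe the direction of the changes. All 27 tested cell cycle genes had log2 changes above 0, against 36.9% of all tested genes, with a median of 0.50. None of the 27 was called by limma or reached an unadjusted p under 0.05. With the block, Rrm2 was called higher (adjusted p = 0.0483). The median level of the cell cycle genes was 41.4, 18.9 and 19.3 FPKM in the BMP2 libraries and 47.2, 10.1 and 8.90 FPKM in the RSPO2 libraries, so replicate 1 stood above the others in both arms and the arms overlapped. With replicates 2 and 3 alone, 26 of the 27 were called higher with BMP2, in a fit that called 846 of 11548 tested genes higher. All 13 tested glycolysis and hypoxia genes had log2 changes below 0, with a median of −0.73, and 1 was called (2 with the block, the other being Hk2). This was the phosphofructokinase gene Pfkp, at 3.65 ± 0.402 FPKM with BMP2 and 7.85 ± 0.866 FPKM with RSPO2 (log2 −0.93, SE 0.15, adjusted p = 0.00502). Without RSPO2 replicate 2, 5 glycolysis and hypoxia genes fell. Of 19 cholesterol synthesis genes 1 was called, near the share of all tested genes. This was Dhcr7, at 28.4 ± 1.92 FPKM with BMP2 and 11.9 ± 2.37 FPKM with RSPO2 (log2 1.21, adjusted p = 0.00541). No adipocyte gene of 3 tested was called by limma, and 1 was lower at an unadjusted p under 0.05. No interferon response gene of 10 tested was called, 1 was higher and 3 were lower at an unadjusted p under 0.05. With the block 1 rose and 1 fell. Of all tested genes, 15.6% had an unadjusted p under 0.05 by limma in either direction, and such short lists cannot be set against that share.

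Against Control, 175 genes (1.52%) were called with BMP2 and 9 genes (0.0779%) with RSPO2, and both comparisons use the same Control libraries. Control and BMP2+RSPO2 libraries entered the choice of called genes only through the estimate of spread and the 1 FPKM filter over the 12 libraries. No test was made of the positions of their means. Among the 220 genes higher with BMP2, the Control mean lay between the BMP2 and RSPO2 means in 212, and among the 401 lower genes in 374, against 6018 (52.1%) of all tested genes. It lay nearer to RSPO2 in 183 of the 220 and in 306 of the 401, against 7278 of all 11548. Called genes were chosen for a large gap between BMP2 and RSPO2, which favours a Control mean inside it. The share among all tested genes is therefore no fair comparison. Opposite movement from Control was not shown for most called genes, since only 9 genes were called with RSPO2 against Control. As a description of means only, Control lay between BMP2 and RSPO2 in most called genes, and mostly farther from BMP2. Examples are Ibsp, with means of 1829 ± 289.8 FPKM with BMP2, 308 ± 77.2 FPKM with RSPO2 and 645 ± 171 FPKM in Control, and Igfbp2, with 12.3 ± 2.85 FPKM with BMP2, 138 ± 15.8 FPKM with RSPO2 and 63.4 ± 1.12 FPKM in Control. Lifr is an exception in the higher group, with 27.9 ± 1.42 FPKM with BMP2, 13.6 ± 0.589 FPKM with RSPO2 and 13.0 ± 0.511 FPKM in Control.

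When both proteins were given, most called genes stood on the BMP2 side. The BMP2+RSPO2 mean was nearer to the BMP2 mean than to the RSPO2 mean in 173 of the 220 higher genes and in 386 of the 401 lower genes, against 7480 (64.8%) of all tested genes. Without BMP2+RSPO2 replicate 1 these numbers were 180 and 387. As for Control, called genes were chosen for a large gap between BMP2 and RSPO2. The share among all tested genes, many with a small gap, is therefore no fair comparison here either. Nkd2 stayed low with both proteins, at 0.307 ± 0.0802 FPKM, against 0.153 ± 0.157 FPKM with BMP2 and 6.34 ± 0.365 FPKM with RSPO2. Axin2, Lef1 and Notum took intermediate levels with both proteins, at 4.53 ± 0.309, 2.31 ± 0.900 and 13.2 ± 4.63 FPKM. Igfbp2 was below both single arms, at 5.91 ± 0.329 FPKM.

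**Figure D4:**
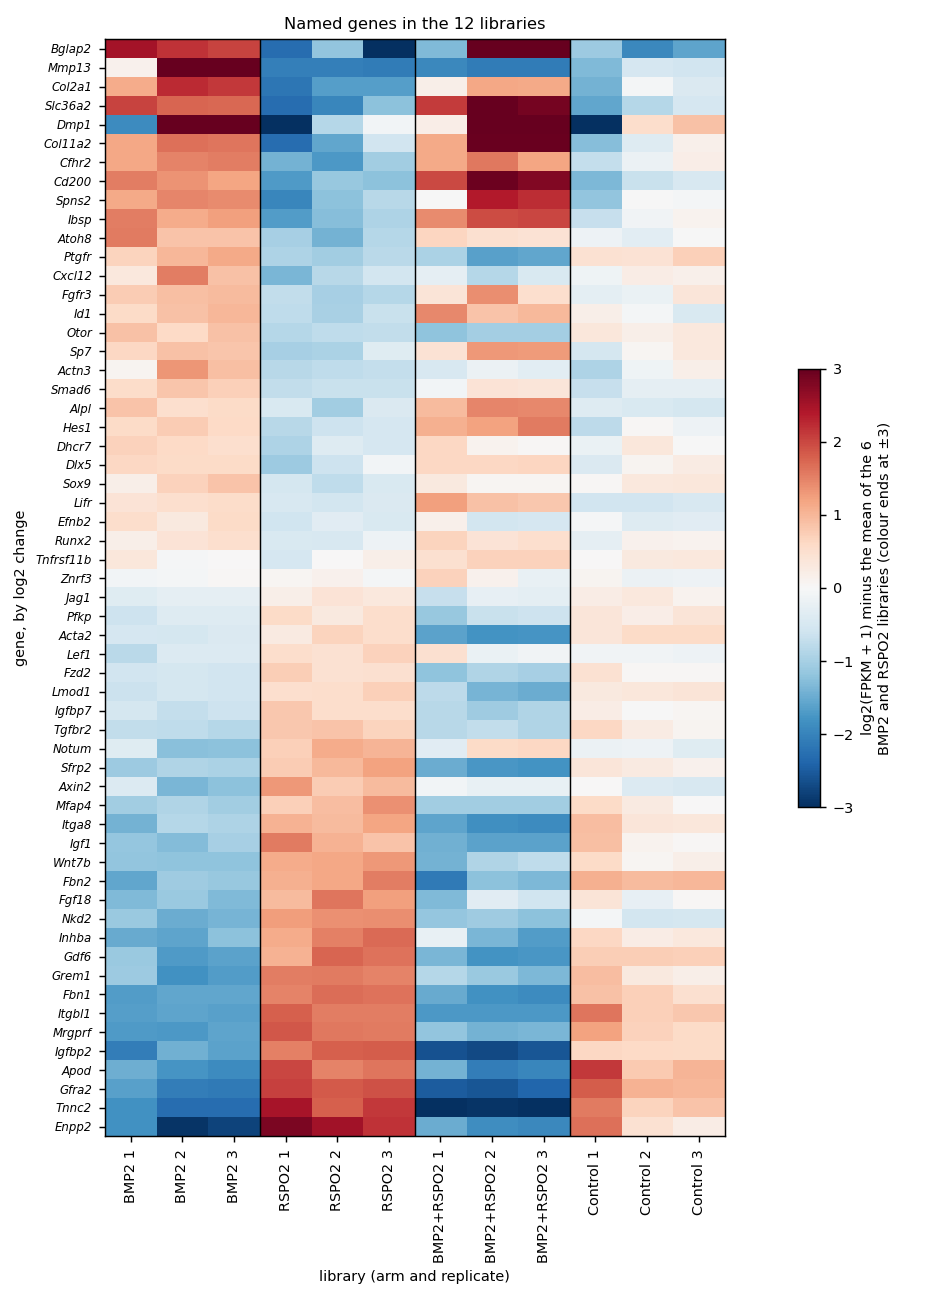
Log2(FPKM + 1) of the named genes in the 12 libraries, minus the mean of the 6 BMP2 and RSPO2 libraries, with genes ordered by log2 change and red above, blue below that mean; the colour scale ends at ±3. The 3 BMP2+RSPO2 columns resemble the BMP2 columns for most genes, except for some such as Mmp13, Ptgfr and Otor, where they resemble the RSPO2 columns.

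**Figure D5:**
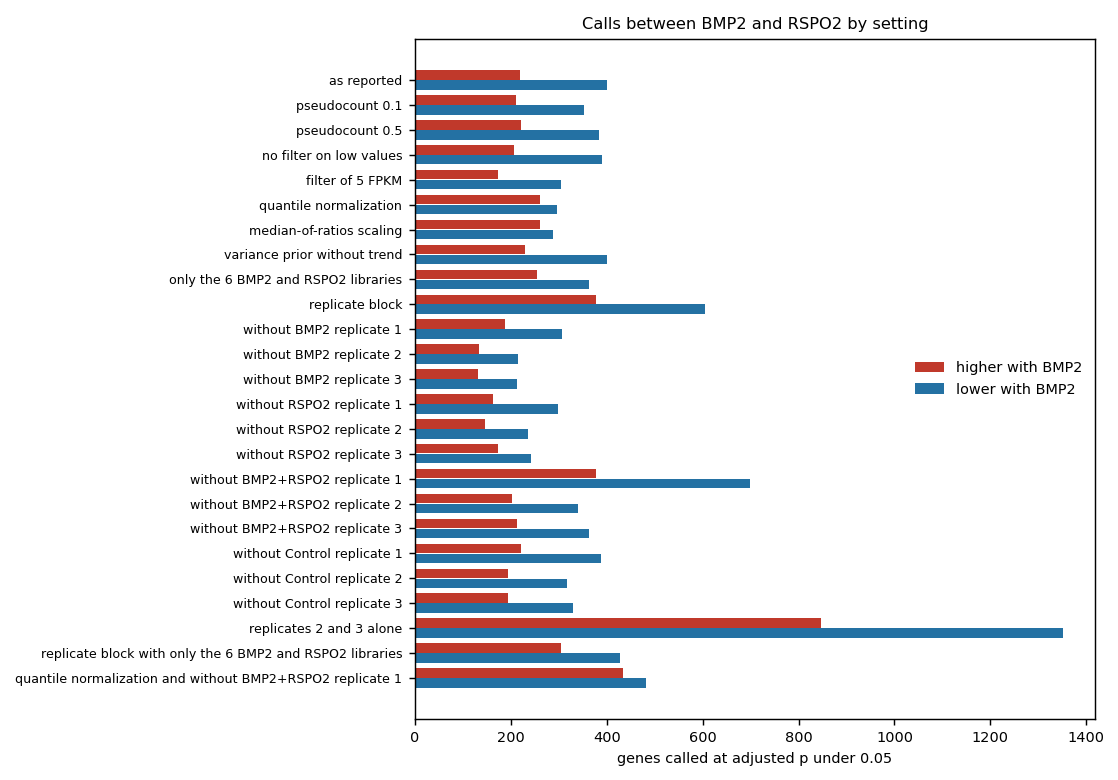
Number of genes called higher (red) and lower (blue) with BMP2 than with RSPO2 at an adjusted p under 0.05, as reported and under each other setting. The calls lower with BMP2 outnumber those higher with BMP2 in every setting, by least after median-of-ratios scaling (261 and 289).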

How the data were processed

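Per the labels' protocols, RNA was extracted with TRIzol and sequenced as stranded poly(A) libraries. Per the submitters' processing notes, cutadapt 1.10, FastQC 0.10.1, HISAT2 2.0 and StringTie 1.3.4 were used, edgeR is listed without version or role, and the builds named are GRCm38 and mm10, whereas the gene identifiers belong to a C57BL/6NJ annotation. Whether counting used strand is not given in the sources used here. The authors deposited 1 FPKM value per gene and library. They also deposited p-values and q-values whose comparison is not stated, and these were not used. Low values showed no steps of whole reads: over 66 library pairs, the fullest 0.02-wide bin of natural log ratios held 2.08% to 4.32% of genes.

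Of 39032 genes, 17203 were at 0 in all libraries, 9758 had no symbol, and 50 symbols occurred again. Genes at 1 FPKM or more in at least 3 of 12 libraries were tested on log2(FPKM + 1), where the pseudocount of 1 understates changes of low genes. In R 4.3.3, limma 3.58.1 fitted a linear model with 4 arm means to the 12 libraries (trended variance prior, 8 residual and 2.50 prior degrees of freedom). Tests were two-sided, adjusted p-values are Benjamini-Hochberg values over the 11548 genes, and 1083 tested genes had no symbol. On simulated data with 200 changed genes among 11548, the fit recovered 58% of genes changed by a log2 of 1 and 85% of those changed by 2, with 5 false calls. The changed genes were drawn from those with a mean log2(FPKM + 1) above 2. The simulated noise was independent between libraries, unlike in the data, so these rates may be too favourable.

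Samples with the same replicate number deviated together between BMP2 and RSPO2 (correlations 0.116 to 0.398 in 3 pairs, and −0.124 to 0.631 over the 18 pairs of all arms). The main fit did not pair the arms by these numbers, and its adjusted p-values ignore them. A fit with the replicate number as a block is given as an alternative. The labels do not say what the numbers share. Named genes were a panel of 15, the 8 largest rises and 8 largest falls among called genes without overlap and without predicted names, up to 3 called members per list by p, and other list members as examples. There were 21 lists with 417 entries, of which 266 were tested, and no endothelial marker was tested. Members and lists were chosen with earlier results of these data known. Alternatives were other pseudocounts, filters, scalings and variance priors, fewer libraries, and the replicate block. Some X-linked and mitochondrial genes were not analysed here.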

Additional observations from a re-analysis of the deposited data

How the results depend on the processing

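All 621 calls kept their direction in every alternative in which they were tested. With pseudocounts of 0.1 and 0.5 there were 564 and 605 calls, without a filter on low values 596, with a filter of 5 FPKM 479, without a trend in the variance prior 630, and with only the 6 BMP2 and RSPO2 libraries 617 (254 higher, 363 lower). The replicate block gave 982 calls (378 higher, 604 lower). Among the named genes it changed only the call of Dmp1, and for other list members the numbers of calls with it are given beside the lists where they differ. Replicates 2 and 3 alone gave 2197 (846 higher, 1351 lower), 609 of them shared with the 621. Leaving out each library gave 343 to 1076 calls, 131 to 378 higher and 212 to 698 lower. Chosen after seeing the data, the block with only the 6 libraries gave 732 calls, and quantile normalization without BMP2+RSPO2 replicate 1 gave 916 (435 higher, 481 lower). The cause of these shifts was not tested. Tnfrsf11b, which was not called, had a log2 change of −0.10 with replicates 2 and 3 alone. With 3 libraries an arm, unknown depth and FPKM rounded to 2 decimals, small changes of low genes could not be resolved, and p-values measure the spread between cultures of a single line.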

Other observations

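Genes outside the lists, chosen after their values were seen, extended the contrast to other matrix proteins. The collagen gene Col3a1 was at 255, 423 and 424 FPKM with BMP2 and at 743, 732 and 781 FPKM with RSPO2 (log2 −1.07, SE 0.19, adjusted p = 0.00750). Aspn, which encodes asporin, a small proteoglycan that binds collagen, was at 64.2, 66.1 and 73.8 FPKM with BMP2 and at 275, 345 and 372 FPKM with RSPO2 (log2 −2.25, SE 0.36, adjusted p = 0.00409). Control was near the RSPO2 level in both genes, at 758 ± 17.8 and 353 ± 47.6 FPKM. Col6a3 averaged 144 ± 14.3 FPKM with BMP2 and 285 ± 24.2 FPKM with RSPO2, and Thbs2, a thrombospondin gene, 47.3 ± 2.39 FPKM with BMP2 and 133 ± 15.0 FPKM with RSPO2. In the other direction, Panx3, a channel of osteoblasts and chondrocytes, was at 250.3, 205 and 218 FPKM with BMP2 and at 46.5, 54.6 and 73.2 FPKM with RSPO2 (log2 1.95, SE 0.21, adjusted p = 0.000338). Tmem119, a membrane protein gene of osteoblasts and microglia, averaged 348 ± 79.6 FPKM with BMP2 and 158 ± 28.9 FPKM with RSPO2 (log2 1.12, adjusted p = 0.0151).

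A smaller set of genes was higher with BMP2 than with RSPO2 and lower with both proteins than with BMP2 alone. These genes were also chosen after the values were seen and were not tested as a group. Mmp13 was at 0.28, 0.13 and 0.13 FPKM in the BMP2+RSPO2 libraries, against 4.29, 38.1 and 40.3 FPKM with BMP2 and 0.17, 0.18 and 0.13 FPKM with RSPO2. Otor was at 0, 0.15 and 0.15 FPKM with both proteins, Ptgfr at 7.08, 4.08 and 4.29 FPKM and S100b, a calcium-binding protein gene, at 1.46, 2.04 and 2.15 FPKM. Each of these stood below the lowest BMP2 library, which was 23.7 FPKM for Ptgfr and 6.30 FPKM for S100b. Control averaged 1.88 FPKM for Mmp13, 1.81 FPKM for Otor and 21.8 FPKM for Ptgfr. None of these 3 genes was called by limma with BMP2 against Control (adjusted p = 0.0579, 0.128 and 0.562). With RSPO2 against Control, Otor and Ptgfr were called lower (adjusted p = 0.0338 for each). The matrix gene Postn averaged 177 ± 10.4 FPKM with BMP2, 124 ± 7.33 FPKM with RSPO2, 79.4 ± 8.34 FPKM with both proteins and 179.8 ± 3.83 FPKM in Control. Tnc, which encodes tenascin C, was at 190.1, 384 and 393 FPKM with BMP2 and at 80.2, 103 and 113 FPKM with RSPO2. Its mean with both proteins was 138 ± 5.57 FPKM, between the BMP2 and RSPO2 values.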
